A study of Mus musculus with 2 samples.

Results

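Ery 2 is a subcluster of the cells deposited as erythroid progenitors (Ery) of the mouse fetal liver, and its cells were those that the deposited cell table assigns to the cluster of that name. It held 1016 of the 10537 cells kept in the table, 557 of 5480 in library 1 and 459 of 5057 in library 2. This was 10.2% of the kept cells in library 1 (exact binomial 95% interval 9.38 to 11%) and 9.08% in library 2 (8.30 to 9.90%). Ery 1 and Ery 3, the subclusters on either side of it in the authors' numbering, held 734 and 1392 cells and served for comparison. All cells came from 1 liver of a wild-type mouse embryo at E12.5 (C57BL/6 in the labels, C57BL/6J in the methods), with no treatment and no second genotype. The liver was dissociated, dead cells, debris and doublets were sorted out according to the methods, and the cells were run as a pair of droplet libraries that are technical replicates. Expression was measured as unique molecular identifiers (UMIs), which count captured RNA molecules. The series' design text speaks of suspensions in the plural, while the sample labels and the methods speak of a single liver, which is followed here. No biological replicate is then at hand, so levels are given as counts per 1000000 UMIs (CPM), summed over the cells of a subcluster in each library, with no test. In each pair of values below, library 1 comes first and library 2 second, and all intervals cover counting error only.

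Erythroid progenitors that have left the multipotent state come to depend on erythropoietin, divide rapidly in the fetal liver and switch on the genes for heme, globin and the red cell membrane. KLF1 is a zinc finger activator of these genes that binds CACCC-type sites, often near GATA1 sites. The transferrin receptor, encoded by Tfrc, imports iron for heme, and Rhd encodes the mouse Rh blood group protein of the red cell membrane.

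The promoters of Klf1, Rhd and Tfrc, the 3 genes used here as markers of Ery 2, are shown with the motifs that lie at them. All 3 genes were higher in Ery 3 than in Ery 2, as given below, so none is particular to Ery 2. Sequences are from RefSeq (GRCm38.p6), cover 250 bases before to 50 bases after the annotated start, and run 5′ to 3′ on the strand of the gene. Capitals mark matches on either strand to AGATAA or TGATAA, which GATA factors bind, or to CCNCNCCC, a KLF-type motif. The windows lie at chr8:84901732-84902031, chr4:134864286-134864585 and chr16:32608646-32608945, all on the plus strand. For Tfrc, the first of 2 annotated windows is shown.
Klf1: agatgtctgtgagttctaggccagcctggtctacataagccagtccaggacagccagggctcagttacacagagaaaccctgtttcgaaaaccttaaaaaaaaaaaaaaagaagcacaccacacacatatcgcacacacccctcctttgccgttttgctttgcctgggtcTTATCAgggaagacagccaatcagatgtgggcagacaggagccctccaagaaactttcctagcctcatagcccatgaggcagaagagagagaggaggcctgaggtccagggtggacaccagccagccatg
Rhd: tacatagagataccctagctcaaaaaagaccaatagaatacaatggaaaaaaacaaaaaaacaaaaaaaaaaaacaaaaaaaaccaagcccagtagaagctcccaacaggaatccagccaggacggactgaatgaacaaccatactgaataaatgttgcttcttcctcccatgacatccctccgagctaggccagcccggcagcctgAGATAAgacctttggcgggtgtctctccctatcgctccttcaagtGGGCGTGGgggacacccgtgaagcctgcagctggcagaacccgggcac
Tfrc: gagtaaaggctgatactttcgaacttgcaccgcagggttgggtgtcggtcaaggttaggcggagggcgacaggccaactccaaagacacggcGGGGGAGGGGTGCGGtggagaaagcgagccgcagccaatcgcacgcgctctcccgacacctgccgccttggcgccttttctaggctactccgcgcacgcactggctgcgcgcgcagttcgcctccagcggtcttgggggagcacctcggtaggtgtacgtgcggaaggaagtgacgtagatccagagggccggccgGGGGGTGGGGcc
The Klf1 window holds 1 match, TTATCA, which is TGATAA on the opposite strand, starting 80 bases before the start. Rhd has AGATAA 43 bases before the start and GGGCGTGG, a CCNCNCCC match on the opposite strand, just after it. In Tfrc the capitals mark 5 overlapping matches to CCNCNCCC on the opposite strand, in 2 runs, and neither GATA motif. AGATAA occurred in 11.2%, TGATAA in 9.05%, either of them in 18.6%, and CCNCNCCC in 49.5% of all 32851 promoter windows of this length. A match is a description of the letters and not a binding site.

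Depth differed within Ery 2 and has to be given first. Summed over Ery 2, the libraries gave 9184399 and 8704431 UMIs. The median cell had 18254 and 20317 UMIs and 3568 and 3570 detected genes. Ery 1 cells were deeper (medians 26146 and 25977 UMIs) and Ery 3 cells shallower (9066 and 11396). In library 1, 165 Ery 2 cells lay under 4387 UMIs, the lowest UMI number of any kept cell of library 2, and the shallowest had 504. Of these 165 cells, 164 belonged to 1 of the 3 fine clusters that make up Ery 2, cluster 14, which is described on its own further on. Cluster 14 held only 8.66% and 9.43% of the UMIs of Ery 2, so that summed levels mostly describe the deeper cells of clusters 10 and 19. The libraries shared 31 barcodes among kept cells, none of them between Ery 2 cells.

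The markers met the label of Ery 2 as an erythroid subcluster but not that of its deposited cell type, Ery, which the study names as progenitors with Klf1 and without Rhd. In these files Rhd was detected in most Ery 2 cells, as given below, so the cells are called by their deposited subcluster name. Klf1 stood at 701 CPM (95% interval 684 to 719) and 622 CPM (605 to 639) in Ery 2, against 440 and 420 CPM in Ery 1 and 34.8 and 34.2 CPM in hematopoietic stem and progenitor cells (HSPC). Rhd reached 540 CPM (525 to 555) and 474 CPM (460 to 489), from 191 and 174 CPM in Ery 1. Tfrc was at 165 CPM (157 to 173) and 147 CPM (139 to 155), from 93.6 and 88.7 CPM in Ery 1. All 3 markers were thus higher in Ery 2 than in Ery 1 in both libraries, by pooled ratios of 1.54 for Klf1, 2.78 for Rhd and 1.71 for Tfrc. They took different courses beyond Ery 2. Klf1 was close to its Ery 3 level, at 829 and 635 CPM, and the pooled ratio of Ery 3 to Ery 2 was 1.10. Rhd had yet to reach 1220 and 812 CPM in Ery 3, a ratio of 1.99, and Tfrc 439 and 303 CPM, a ratio of 2.37. The total behind these CPM includes the adult globins, which are a larger part of it in Ery 3. Without them in the denominator the ratios of Ery 3 to Ery 2 were higher for all 3 markers, also for Klf1, as given in the last section. Free RNA, read from barcodes with 1 to 50 UMIs, carried 443 and 338 CPM of Klf1, 671 and 666 CPM of Rhd and 261 and 221 CPM of Tfrc. The free level lay below that of Ery 2 for Klf1 and above it for Rhd and Tfrc. With 10% of each cell's UMIs taken as free RNA, the ratio of Ery 2 to Ery 1 was 3.80 for Rhd and 1.97 for Tfrc. By the globin sums given below, a 10% share would bring more adult globin than Ery 1 holds. This setting therefore subtracts too much, and its ratios are no estimate.

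**Figure D1:**
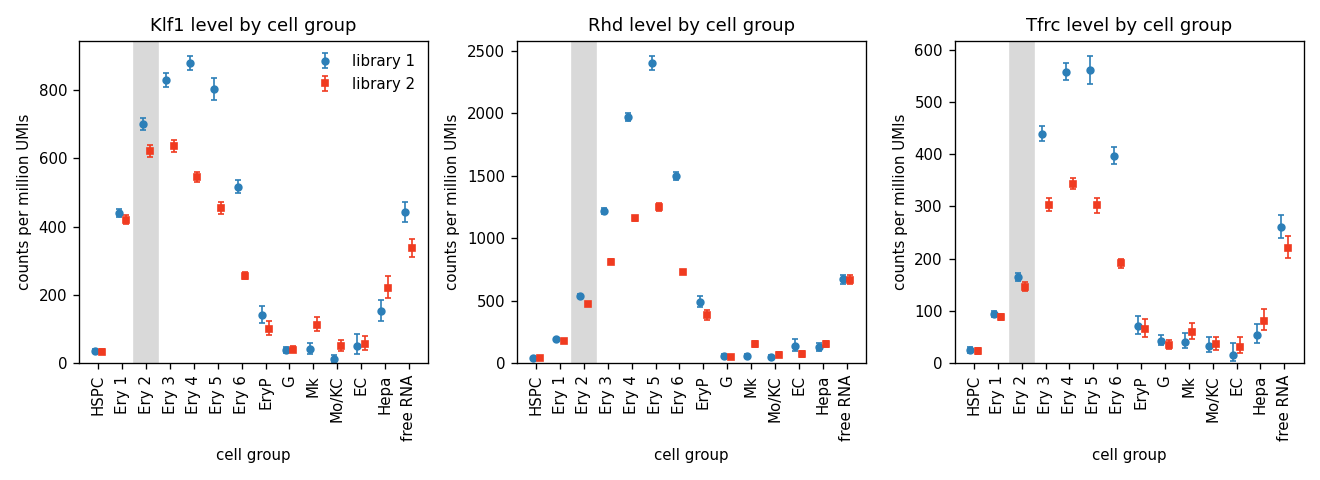
Levels of Klf1, Rhd and Tfrc in CPM in each deposited cell type and in free RNA, with circles for library 1, squares for library 2, bars for 95% Poisson intervals and Ery 2 shaded. With adult globins in the total, Klf1 in Ery 2, at 701 and 622 CPM, is close to its level in Ery 3, while Rhd and Tfrc are higher in Ery 3 than in Ery 2 in both libraries.

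To count cells at equal depth, each cell was thinned to 5300 UMIs, which left out 175 and 35 shallower Ery 2 cells. Klf1 was then detected in 97.4% and 93.6% of Ery 2 cells, against 79.5% and 79.8% in Ery 1. Rhd was detected in 88.7% and 85.8%, against 46.9% and 48.7% in Ery 1 and 98.7% and 98.0% in Ery 3. Tfrc was detected in 52.4% and 45.0%, against 33.3% and 35.3% in Ery 1 and 86.0% and 77.6% in Ery 3. In granulocytes, which should lack Klf1 and Rhd, the thinned shares over both libraries were 12.4% for Klf1 and 14.6% for Rhd, from cells with medians of 10550 and 14769 UMIs in the libraries. For Tfrc the share in granulocytes was 18%. In monocytes and Kupffer cells of library 2, where the background was higher, Klf1 was detected in 25.0% and Rhd in 23.2% of cells. The shares of the 3 markers over all thinned Ery 2 cells stood above these values, but not in each fine cluster. Thinning left 118 of the 315 cells of cluster 14, and Tfrc was detected in 20.3% of them (95% binomial interval 13.5% to 28.7%), which overlaps the granulocyte share (13.3% to 23.6%), against 57.0% in clusters 10 and 19. Klf1 and Rhd were detected in 93.2% and 61.0% of these cluster 14 cells, against 95.5% and 91.1% in clusters 10 and 19. Without thinning, 91.6% of all Ery 2 cells had a Klf1 UMI, 81.9% an Rhd UMI and 67.8% a Tfrc UMI. Kit, the stem cell factor receptor, was low in Ery 2. Its level was 33.9 and 31.4 CPM in Ery 1 and 4.03 and 5.74 CPM in Ery 2, with 10.6 and 8.67 CPM in free RNA. It was detected in 1.31% and 2.12% of thinned Ery 2 cells, with means over all draws of 2.21% and 2.77%. Thinned shares were 1.49% and 2.36% in cluster 10, 2.17% and 1.39% in cluster 14, and 2.22% and 5.71% in cluster 19. Each group of cells was thinned in a draw of its own, so the shares of the clusters do not add up to that of Ery 2. Means over all draws were 1.26% and 1.48% in cluster 10, 2.31% and 0.685% in cluster 14, and 3.61% and 5.80% in cluster 19. Unthinned shares were 5.45% and 4.93% in cluster 10, 0.909% and 1.05% in cluster 14, and 15.6% and 19.9% in cluster 19.

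For each gene, a difference between subclusters was called where the CPM differed at least 2-fold in each library, among genes with at least 20 CPM in one of the subclusters compared. These counts describe clusters that were built from the same genes. Between Ery 1 and Ery 2, 103 of 4846 genes (2.13%) were called higher and 213 (4.40%) lower in Ery 2. Between Ery 2 and Ery 3, 98 of 4498 genes (2.18%) were called higher and 664 (14.8%) lower in Ery 3. The median ratio over all genes tested was 0.900 for the first step and 0.739 for the second. The total behind these CPM includes the globins. With the adult globins left out of the denominator the medians were 0.935 and 0.914, and the second step gave 231 genes higher and 366 lower, so that 38.7% of the called genes were higher in place of 12.9%. From library 1 alone, 198 genes passed 2-fold as higher in Ery 3, and from library 2 alone 94. Genes called higher at both steps numbered 32, which is 31.1% of the first list and 32.7% of the second. Those called lower at both numbered 54, or 25.4% and 8.13%.

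Among the 10 genes that gained most from Ery 1 to Ery 2, several encode known red cell proteins. Hemgn, a nuclear protein of erythroid cells, was at 79.0 and 65.8 CPM and then at 372 and 286 CPM. Trim10, a RING finger gene with a role in terminal erythroid differentiation, went from 23.5 and 26.9 CPM to 161 and 126 CPM. Both genes were also called higher in Ery 3 than in Ery 2. The largest ratio of the 10 belonged to Apol8, an apolipoprotein L family gene, at 3.44 and 3.66 CPM in Ery 1 and 30.1 and 26.1 CPM in Ery 2 (7.92, interval 6.14 to 10.4). Acp5, which encodes tartrate-resistant acid phosphatase, was at 61.1 and 57.4 CPM in Ery 1, at 352 and 321 CPM in Ery 2 and at 527 and 446 CPM in Ery 3. Acp5 thus made its step into Ery 2 (5.69, 5.34 to 6.07) and little after it (1.44). Ackr1, the Duffy blood group and chemokine-binding receptor, was at 3.95 and 4.09, then 26.0 and 20.2, then 125 and 90.4 CPM. Others were Sgk3, a serum and glucocorticoid-regulated kinase, Btg2, an antiproliferative gene, Hbq1b, a theta globin, and the transcription factor gene Sox6.

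The 10 genes that lost most from Ery 1 to Ery 2 were Ifitm1, Gata2, Apoe, Vim, Cmtm7, Gmfg, Spns2, Icam2, Limd2 and Hhex. Apoe, the apolipoprotein E gene, was at 492 and 541 CPM in Ery 1 and 19.2 and 21 CPM in Ery 2, a ratio of 0.0389 (0.0349 to 0.0433). Vim, which encodes the intermediate filament vimentin, was at 129 and 130 CPM and then at 4.03 and 5.63 CPM. Ifitm1, an interferon-induced membrane protein gene, was at 59.8 and 91.2 CPM and then at 2.07 and 2.18 CPM. In Ery 3 these 3 genes were no more than 14.8 CPM, so most of the difference lay between Ery 1 and Ery 2.

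From Ery 2 to Ery 3, the 10 largest gains were those of Fn3k, Nacad, Ypel4, Gm867, Ackr1, Runx1t1, Hbq1b, Hbb-bs, Alas2 and Hbb-bh1. Fn3k, the fructosamine 3-kinase gene, was at 8.17 and 6.55 CPM in Ery 2 and at 74.5 and 49.5 CPM in Ery 3 (8.35, 6.95 to 10.1). The 10 largest losses were those of Prelid2, Ydjc, St6galnac4, Dctd, Tagln2, Gdf3, 1700097N02Rik, Gm15915, Cdk6 and Fam195a. Prelid2 was at 43.2 and 43.0 CPM in Ery 2 and at 2.47 and 2.57 CPM in Ery 3 (0.0584, 0.0414 to 0.0803). Ery 2 thus still held transcripts that were nearly gone in Ery 3. Gm15915, a long noncoding RNA gene, was at 238 and 288 CPM in Ery 1, 31.7 and 47.7 CPM in Ery 2 and 3.64 and 4.52 CPM in Ery 3.

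Progenitor transcription factors were lower in Ery 2 than in Ery 1. Of 6 progenitor factors tested, 4 were called lower in Ery 2 than in Ery 1 and none higher (median ratio 0.333), beside 4.40% lower and 2.13% higher among all genes, and all 4 are regulators of stem and early progenitor cells. Gata2, the GATA factor that precedes GATA1, was at 30.8 and 29.5 CPM in Ery 1 and 0.544 and 1.03 CPM in Ery 2. Myb, a regulator of progenitor proliferation, was at 107 and 101 CPM, then 19.8 and 24.0 CPM, then 2.60 and 3.42 CPM, and was called lower at both steps. Hhex was at 31.8 and 28.9 CPM and then at 0.871 and 2.64 CPM, and Runx1 at 21.7 and 26.3 CPM and then at 10.8 and 11 CPM. The proliferation factor Myc, at 149 and 103 CPM and then 68.2 and 53.0 CPM, narrowly missed 2-fold in library 2 and was called lower from Ery 2 to Ery 3 (20.1 and 14 CPM). Lyl1 did not pass at either step (185 and 168, 163 and 153, 220 and 159 CPM).

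The erythroid transcription factors had few called members. Of 16 tested, 1 was called higher and 1 lower in Ery 2 than in Ery 1, beside 2.13% and 4.40% of all genes, with a median ratio of 1.13 beside 0.900. Sox6, a repressor of embryonic globin genes, was the one that rose, from 4.76 and 5.71 CPM in Ery 1 to 31.2 and 24.1 CPM in Ery 2, and it reached 79.8 and 63.5 CPM in Ery 3. Cbfa2t3, which encodes the ETO2 corepressor, was the one that fell, from 50.2 and 51.5 CPM to 14.9 and 17.3 CPM. Gata1, the master regulator of the lineage, was at 164 and 166 CPM in Ery 1, 205 and 183 CPM in Ery 2 and 235 and 176 CPM in Ery 3. Klf3, which encodes a KLF1-induced repressor, was at 29.1 and 31.0 CPM, 63.2 and 50.7 CPM, and 131 and 84.3 CPM, and passed 2-fold in library 1 only.

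Surface receptors differed in both directions. Of 11 tested, 2 were called higher and 4 lower in Ery 2 than in Ery 1, beside 2.13% and 4.40% of all genes, with a median ratio of 0.872 beside 0.900. The 2 were Cd24a, a glycosylated surface antigen of erythroblasts, at 475 and 414 CPM and then 1734 and 1475 CPM, and the tetraspanin gene Cd82, at 26.3 and 25.6 CPM and then 54.4 and 52.4 CPM. The 4 were Kit, Igf1r, Cd9 and Cd44. Cd44, the hyaluronan receptor, was at 17.3 and 16.7 CPM in Ery 2. Epor, the erythropoietin receptor, was at 129 and 129 CPM in Ery 1, 178 and 178 CPM in Ery 2 and 199 and 182 CPM in Ery 3, and was not called. Of 9 genes of erythropoietin signalling and survival, Stat5a was called lower in Ery 2 (31.2 and 36.0 CPM, then 13.3 and 14.8 CPM) and none higher, beside 4.40% and 2.13% of all genes. At the next step 1 of 7 tested was called in each direction, beside 2.18% of all genes higher and 14.8% lower, and the count of lower genes is near that share. The survival kinase gene Pim1 was called higher, from 56.9 and 86.3 CPM to 199 and 197 CPM, and the proapoptotic gene Bid lower, from 32.2 and 33.3 CPM to 5.33 and 5.99 CPM.

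Genes of heme synthesis were higher together in Ery 2 than in Ery 1. Of 13 genes tested, 9 were called higher in Ery 2 than in Ery 1 and none lower, beside 2.13% of all genes higher, with a median ratio of 2.49 beside 0.900. Alas2, the erythroid enzyme of the first step, was at 38.5 and 48.6 CPM in Ery 1 and at 167 and 151 CPM in Ery 2. Fech, which inserts iron into the ring, was at 140 and 150 CPM and then at 377 and 378 CPM. The group of 9 also held Uros, Cpox and Ppox, the mitochondrial carriers Slc25a38 and Abcb10, and the glycine transporter gene Slc6a9. Alad (526 and 478 CPM, then 1030 and 893 CPM), Urod, Tmem14c and Abcb6 had ratios of 1.63 to 2.15 in the libraries and did not pass in both. From Ery 2 to Ery 3 the order differed, since 1 of 13 genes was called higher, beside 2.18% of all genes, and that gene was Alas2, at 905 and 630 CPM in Ery 3. With adult globins in the denominator, Alas2 thus passed at both steps and the other 8 at the first alone, although the median ratio at the second step was still 1.63. Among all genes, leaving the adult globins out raised those called higher at the second step from 98 to 231, as given above.

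Of 14 iron genes tested, 1 was called higher in Ery 2 and none lower, beside 2.13% and 4.40% of all genes. This gene, Slc25a37, which encodes the mitochondrial iron importer mitoferrin 1, went from 82.2 and 73.6 CPM to 238 and 198 CPM. It was called again at the next step, to 900 and 631 CPM, together with Tfrc, 2 of 14 beside 2.18% of all genes. Fth1, the ferritin heavy chain gene, was at 3433 and 2997 CPM and then at 6825 and 5663 CPM, ratios just under 2. The median ratio of the group at the first step was 1.14 beside 0.900 over all genes.

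Adult globin genes were called higher in Ery 2 than in Ery 1 for all 4 measured, beside 2.13% of all genes, the beta genes Hbb-bs and Hbb-bt and the alpha genes Hba-a1 and Hba-a2. Summed, they stood at 10246 and 23220 CPM in Ery 1, 32396 and 73332 CPM in Ery 2 and 155222 and 282169 CPM in Ery 3. The ratio of Ery 2 to Ery 1 was 3.16 in each library, and that of Ery 3 to Ery 2 was 4.79 and 3.85. The alpha globin copies Hba-a1 and Hba-a2 are near-identical, as are parts of Hbb-bs and Hbb-bt, so their separate levels are uncertain. In free RNA the 4 genes made up 193381 and 379293 CPM, and library 2 was higher than library 1 both there and in the cells. What part free RNA has in the Ery 2 level was not tested. The 3 embryonic globins, which mark primitive erythroblasts, summed to 678 and 919 CPM in Ery 2 and none was called between Ery 1 and Ery 2. In free RNA they summed to 15252 and 14009 CPM.

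Genes of the red cell membrane and skeleton were also higher in part. Of 25 tested, 12 were called higher in Ery 2 than in Ery 1 and none lower, beside 2.13% of all genes higher, with a median ratio of 2.08 beside 0.900. Slc4a1, which encodes the anion exchanger band 3, was at 38.6 and 41.7 CPM in Ery 1, 190 and 167 CPM in Ery 2 and 901 and 602 CPM in Ery 3. Epb42, the protein 4.2 gene, was at 17.5 and 16.8 CPM and then at 74.6 and 61.5 CPM. Sptb, the beta spectrin gene, was at 19.2 and 19.3 CPM and then at 60.5 and 50.7 CPM. Others of the 12 were Dmtn, Tmod1, Rhag, Rhd, Kel and Cldn13, which include the Rh complex, the Kell antigen and caps of the actin protofilament. The list and the 12 also count Trim10, the RING finger gene named above, which is none of these components. At the next step 8 of 25 were called higher, beside 2.18% of all genes, among them Slc2a1, the glucose transporter gene, which had not been called before (61.6 and 57.2 CPM in Ery 2, 213 and 138 CPM in Ery 3). Aqp1 was the one member called lower at that step.

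Of 14 genes of red cell enzymes and antioxidants, 1 was called higher in Ery 2 and none lower, beside 2.13% and 4.40% of all genes. It was the carbonic anhydrase gene Car2, at 1377 and 1080 CPM in Ery 1 and at 3595 and 2586 CPM in Ery 2. The median ratio of this group was 1.48 beside 0.900 over all genes. Prdx2, Blvrb and Pklr passed 2-fold in library 1 and had a ratio of 1.92 in library 2.

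**Figure D2:**
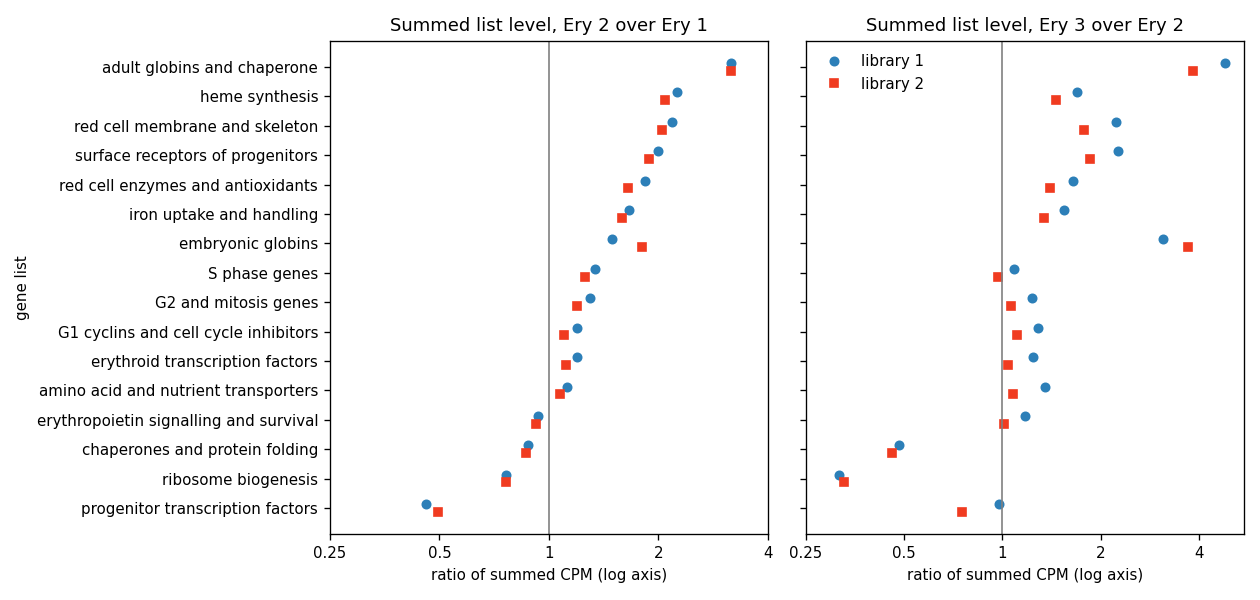
Ratio of the summed CPM of 16 gene lists between Ery 2 and Ery 1 and between Ery 3 and Ery 2, on a log axis, with circles for library 1 and squares for library 2. Heme synthesis lies at 2.24 and 2.09 for the first step and at 1.70 and 1.46 for the second, while ribosome biogenesis lies at 0.761 in each library and then at 0.315 and 0.327.

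Among genes of cell division, none of 30 S phase genes and none of 28 genes of G2 and mitosis was called at the step into Ery 2, which is near the shares over all genes (2.13% higher, 4.40% lower), with median ratios of 1.33 and 1.27 beside 0.900. At the step into Ery 3, 1 of 30 S phase genes and 3 of 28 genes of G2 and mitosis were called higher, beside 2.18% of all genes, and the share of S phase genes is near that of all genes. The first was E2f2, an S phase transcription factor gene (29.6 and 24.0 CPM, then 108 and 75.7 CPM), and the others were the mitotic genes Mki67, Cenpf and Nusap1. Mki67, the proliferation marker, was at 108 and 102 CPM in Ery 1, 194 and 159 CPM in Ery 2 and 513 and 350 CPM in Ery 3. Of 10 G1 regulators tested, 3 were called higher and 2 lower in Ery 2 than in Ery 1, beside 2.13% and 4.40% of all genes. Of 13 tested at the next step, 6 were called higher and 3 lower in Ery 3, beside 2.18% and 14.8% of all genes. Cyclin D2 (Ccnd2) was at 92.4 and 91.1 CPM in Ery 1, 35.0 and 35.0 CPM in Ery 2 and 12.9 and 15.8 CPM in Ery 3, and its partner kinase gene Cdk6 at 124 and 126 CPM, 27.5 and 34.8 CPM, and 2.21 and 4.03 CPM. Both were called lower at each step. Cyclin D3 (Ccnd3) was at 201 and 208 CPM, 479 and 416 CPM, and 1124 and 878 CPM, and passed at the second step. Among inhibitors, Cdkn2c, the p18 gene, was at 8.20 and 4.20 CPM, 28.1 and 17.2 CPM, and 85.8 and 45.8 CPM. Cdkn2c and Btg2 were called higher at both steps and Gadd45a at the first alone, while Cdkn2d (30.4 and 30.1 CPM in Ery 2, 136 and 81.4 CPM in Ery 3) was called at the second alone.

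Genes of ribosome biogenesis had their called differences between Ery 2 and Ery 3. Of 25 tested, none was called between Ery 1 and Ery 2, which is near the 4.40% of all genes called lower, and the median ratio was 0.728 beside 0.900. Between Ery 2 and Ery 3, 19 of 22 were called lower and none higher, beside 14.8% of all genes lower, with a median ratio of 0.339 beside 0.739 over all genes. Npm1, the nucleophosmin gene, was at 6570 and 6046 CPM in Ery 1, 4770 and 4422 CPM in Ery 2 and 1084 and 1090 CPM in Ery 3. Ncl, the nucleolin gene, was at 2418 and 2557 CPM, 1969 and 2112 CPM, and 701 and 774 CPM. Of 16 chaperones, none was called at the first step and 7 were called lower at the second, beside 14.8% of all genes. Hspd1, the mitochondrial HSP60 gene, was at 1606 and 1517 CPM, 1373 and 1283 CPM, and 298 and 302 CPM. The 81 cytosolic ribosomal protein genes, a list added after the data had been seen, had no called member at either step, with median ratios of 0.984 and 0.763. Of 11 amino acid and nutrient transporters, none was called at the first step, and at the second Slc2a1 was called higher and Slc38a1 and the folate carrier gene Slc19a1 lower, beside 2.18% and 14.8% of all genes. Of 16 actin cytoskeleton genes, also a list added later, 5 were called lower in Ery 2 than in Ery 1 and 6 in Ery 3 than in Ery 2, beside 4.40% and 14.8% of all genes.

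A small set of genes stood highest in Ery 2 itself. At least 1.5-fold above both Ery 1 and Ery 3 in each library were 6 of 4991 genes (0.120%), and 1 gene was at least 1.5-fold below both (0.0200%). Tspan15, a tetraspanin that binds the protease ADAM10, was at 11.6 and 8.29 CPM in Ery 1, 28.1 and 20.6 CPM in Ery 2 and 7.15 and 4.15 CPM in Ery 3. Its pooled ratio was 2.44 (2.05 to 2.90) over Ery 1, and Ery 3 over Ery 2 was 0.229 (0.181 to 0.289). Klhdc8b, a kelch domain gene, was at 9.52 and 9.59 CPM, 20.9 and 22.2 CPM, and 8.97 and 7.94 CPM. Aqp1, the water channel of the red cell membrane, was at 46.1 and 38.0 CPM, 72.0 and 65.1 CPM, and 33.7 and 26.9 CPM. The others were Stard10, a lipid transfer protein gene (47.9 and 37.1 CPM in Ery 2), Arhgdig (70.2 and 64.7 CPM), and the fucosidase gene Fuca2 (91.2 and 81.7 CPM). The gene that was lowest in Ery 2 was Smim3, a small membrane protein gene, at 29.3 and 23.8 CPM, 13.3 and 8.85 CPM, and 31.2 and 20.6 CPM. These lists rested on how cells were summed. With each cell weighted equally, 8 genes passed as highest and Aqp1 and Tspan15 were the 2 that were shared with the 6. From library 1 alone 10 genes passed, and from library 2 alone 12, each time with all 6.

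The promoter of Tspan15, the first of these genes by rank, is shown for comparison with the markers. It lies at chr10:62231169-62231468 on the minus strand (RefSeq, GRCm38.p6), and capitals mark matches to CCNCNCCC.
Tspan15: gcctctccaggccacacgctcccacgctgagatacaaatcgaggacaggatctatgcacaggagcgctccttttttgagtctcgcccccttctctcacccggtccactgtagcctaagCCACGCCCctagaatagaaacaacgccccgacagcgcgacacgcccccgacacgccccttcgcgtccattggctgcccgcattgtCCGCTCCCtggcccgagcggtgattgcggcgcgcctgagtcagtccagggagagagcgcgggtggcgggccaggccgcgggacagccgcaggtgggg
It holds 2 such matches, CCACGCCC and CCGCTCCC, at 132 and 47 bases before the start, and neither GATA motif.

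Ery 2 was not uniform and merged 3 fine clusters of the deposited table, numbered 10, 14 and 19. Cluster 10 held 202 cells (36.3%) and 223 cells (48.6%), cluster 19 held 135 (24.2%) and 141 (30.7%), and cluster 14 held 220 (39.5%, interval 35.4 to 43.7%) and 95 (20.7%, 17.1 to 24.7%). The share of cluster 14 therefore differed between the libraries by more than counting error. Among cells of at least 4387 UMIs it was 14.3% (11 to 18.1%) and 20.7%. Clusters 10 and 19 were both deep, with medians of 22473 and 21129 UMIs and of 27036 and 25548 UMIs. They differed in adult globin, whose median share of a cell was 3.52% and 7.90% in cluster 10 and 1.31% and 2.12% in cluster 19. Summed heme synthesis genes were 1.37 and 1.41 times as high in cluster 10 as in cluster 19, membrane genes 1.42 and 1.36 times, and ribosome biogenesis genes 0.721 and 0.718 times. The same groups that separated Ery 2 from its neighbours thus differed between these clusters in the same directions.

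Cluster 14 stood apart from both. Its median cell had 1778 UMIs in library 1 and 6833 in library 2, and only 0.0780% and 0.418% of them came from mitochondrially encoded genes, against 2.70% and 2.56% in cluster 10. In Ery 2, 191 cells of library 1 (34.3%) and 51 of library 2 (11.1%) had less than 0.5% mitochondrial UMIs, and every one of them was in cluster 14. In Ery 1 there were 2 and 0 such cells, and in Ery 3 none. Cells of this kind were frequent among EryP, the deposited cluster of primitive erythroblasts, with 132 of 170 cells and 101 of 118. Ery 6 had 12 of 1218 and 250 of 1176 such cells, and Ery 5 had 1 of 497 and 37 of 590.

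**Figure D3:**
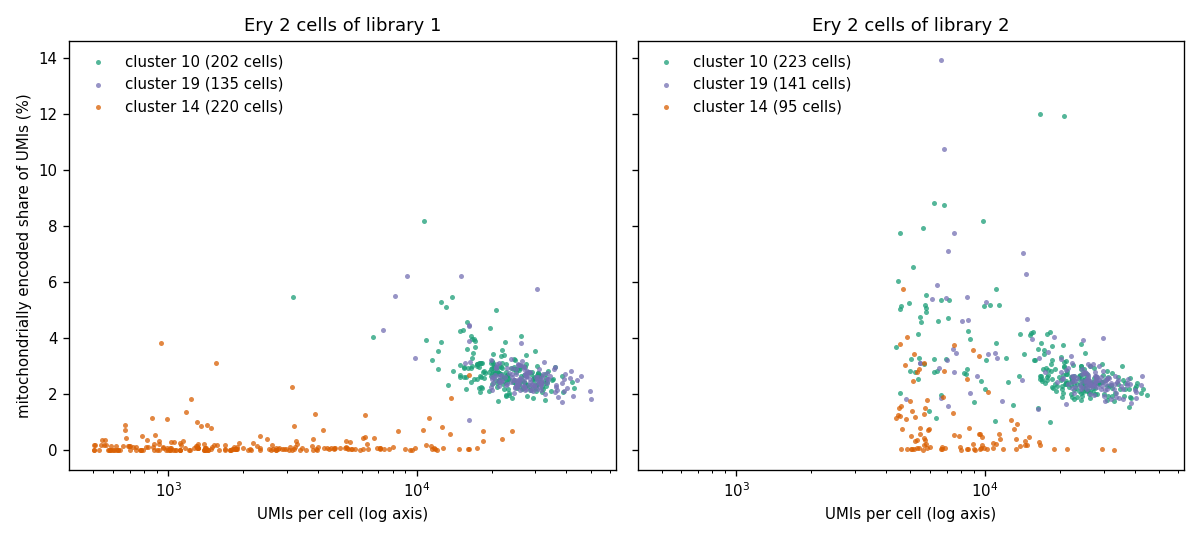
Each Ery 2 cell by its UMI number (log axis) and the share of its UMIs from mitochondrially encoded genes in percent, in 1 panel per library and coloured by fine cluster. Cells of clusters 10 and 19 gather above 4387 UMIs near 2.5%, and most cells of cluster 14 lie near 0, in library 1 down to 504 UMIs.

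At least 2-fold higher in cluster 14 than in clusters 10 and 19 combined, in each library, were 8 of 1609 genes with at least 100 CPM (0.497%), and 28 were lower (1.74%). The lower genes were led by mitochondrial transcripts. The subunit gene mt-Atp6 was at 826 and 1812 CPM in cluster 14 and at 6661 and 6756 CPM in clusters 10 and 19, and mt-Nd2 at 55.3 and 182 CPM against 952 and 879 CPM. Receptor and membrane genes were among them. Tfrc was at 57.8 and 70.7 CPM against 175 and 155 CPM, Epor at 91.7 and 87.7 CPM against 186 and 188 CPM, and Rhag at 64.1 and 45.1 CPM against 178 and 141 CPM. The marker Rhd was at 197 and 286 CPM against 573 and 494 CPM, and Klf1 at 615 and 507 CPM against 710 and 634 CPM. Of the 3 markers, Klf1 thus differed least between cluster 14 and the rest of Ery 2. Mki67 was at 39.0 and 67.0 CPM against 209 and 168 CPM, although the summed G2 and mitosis genes had ratios of 0.999 and 1.01.

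The genes higher in cluster 14 included Gm15915, at 134 and 178 CPM against 21.9 and 34.1 CPM, and the actin-binding genes Tagln2 (205 and 279 CPM against 68.9 and 88.5 CPM) and Arpc1b (121 and 129 CPM against 45.7 and 47.3 CPM). Myc was at 171 and 98.7 CPM against 58.4 and 48.2 CPM, and the carbonic anhydrase gene Car1 at 175 and 85.3 CPM against 59.2 and 41.1 CPM. Among the cluster 14 cells with less than 0.5% mitochondrial UMIs (191 and 51), Gm15915, Tagln2 and Arpc1b were still called higher. Myc (ratios 2.81 and 1.94), Car1 (3.28 and 1.16), Sh3bgrl3 (2.21 and 1.82) and Rpgrip1 (1.42 and 1.62) were not, and the embryonic globin gene Hbb-bh1 was at 0.524 and 0.801. Several of the genes higher in cluster 14 were also higher in Ery 1 than in Ery 2, as given for Myc and Gm15915. As summed lists, progenitor transcription factors had ratios of 1.79 and 1.56, actin cytoskeleton genes 1.41 and 1.52, glycolysis enzymes 1.27 and 1.25 and ribosome biogenesis genes 1.27 and 1.16. Summed adult globins had ratios of 1.24 and 1.42, which were not those of the median cell. The median adult globin share of a cell was 1.78% and 5.89% in cluster 14, against 2.39% and 5.84% in clusters 10 and 19. The 90th percentile was 6.44% and 35.5%, against 6.76% and 16.1%. HSPC markers had ratios of 2.11 and 4.52 and endothelial markers of 2.34 and 7.55, from 3 and 8 and from 2 and 11 UMIs in cluster 14. Megakaryocyte markers had ratios of 2.14 and 0.996, hepatoblast markers 1.11 and 1.85, and monocyte and Kupffer cell markers 0.277 and 0.640, the last from 1 and 1 UMIs. Mast cell markers had 3 and 7 UMIs in cluster 14 and 0 and 1 in clusters 10 and 19. The part of these markers in the other values was not tested. Cytosolic ribosomal protein genes were level at 1.01 and 0.977. Lower lists were mitochondrial genes (0.124 and 0.270), nuclear-retained RNAs such as Malat1 (0.219 and 0.719), endoplasmic reticulum chaperones (0.652 and 0.710), lysosomal genes (0.648 and 0.627), transporters (0.661 and 0.639) and red cell membrane genes (0.689 and 0.688). The mitochondrial, nuclear-retained, endoplasmic reticulum, lysosomal, actin, glycolysis and ribosomal protein lists were added after the data had been seen.

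**Figure D4:**
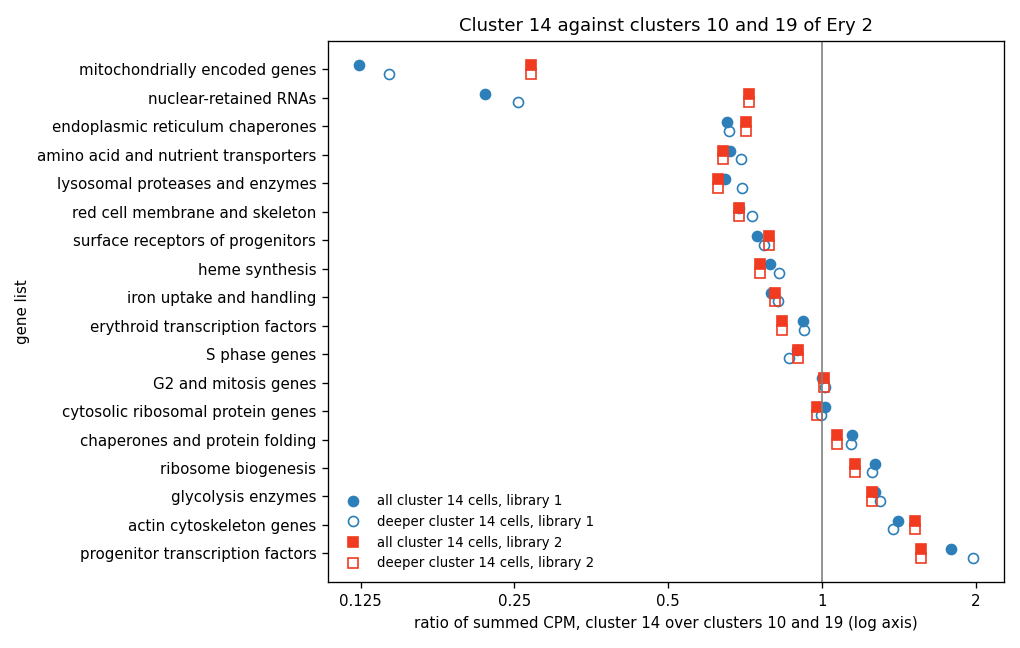
Ratio of the summed CPM of 18 gene lists in cluster 14 over clusters 10 and 19, on a log axis, with filled symbols for all cells of cluster 14 and open symbols for its cells of at least 4387 UMIs. Lists of mitochondrial and membrane genes lie below 1 and those of actin and progenitor factors above 1 in both libraries, and the open symbols of library 1 keep these sides.

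The deeper cells of cluster 14 in library 1 still had a median of 7526 UMIs, against 24683 in clusters 10 and 19, and the part of depth in these ratios was not tested. With the 56 cluster 14 cells of library 1 that had at least 4387 UMIs, the ratio was 0.142 for mitochondrial genes, 0.254 for nuclear-retained RNAs, 0.388 for Rhd and 0.345 for Tfrc. It was 1.98 for the sum of the progenitor factors, which rests on few genes as said above. Cells of cluster 14 with less than 0.5% mitochondrial UMIs (191 and 51) and the others (29 and 44) differed from each other. In the first set Rhd had ratios of 0.267 and 0.445 to clusters 10 and 19, Tfrc 0.200 and 0.247, and embryonic globins 0.998 and 0.892. In the second set the same ratios were 0.637 and 0.817 for Rhd, 0.820 and 0.826 for Tfrc, and 5.18 and 14.6 for embryonic globins. In the second set the summed granulocyte markers had ratios of 2.89 and 2.74. Over all of cluster 14 the 10 granulocyte markers summed to 157 and 150 CPM, against 78.6 and 93.2 CPM in clusters 10 and 19, and the 3 embryonic globins to 1183 and 3697 CPM, against 630 and 630 CPM. The part of free RNA or of doublets in these values was not tested. Low mitochondrial cells differed from the other cells within EryP along some of the same lists. There the ratios were 0.561 and 0.564 for endoplasmic reticulum chaperones, 0.624 and 0.548 for membrane genes and 0.609 and 0.515 for Rhd, but 0.944 and 0.712 for actin genes. Leaving out cluster 14, an alternative added after the data had been seen, gave 109 genes higher in Ery 2 than in Ery 1, of which 102 were shared with the 103, and 220 lower, of which 206 were shared with the 213.

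Within clusters 10 and 19, cells were ordered in each library by their adult globin share and split into 4 groups of 84 or 85 cells in library 1 and 91 in library 2. The median globin share went from 1.06% and 1.5% in the lowest group to 6.09% and 14.9% in the highest. Most cells of the lowest group were in cluster 19 (75 and 86) and most of the highest in cluster 10 (76 and 76). The groups are slices of a range and no separate cell types. Alas2 stood at 48.7 and 39.6 CPM in the lowest group and at 358 and 334 CPM in the highest. Slc4a1 stood at 49.6 and 37.9 CPM and at 376 and 344 CPM. The summed heme synthesis genes stood at 6190 and 5589 CPM and at 9306 and 7208 CPM. Alas2 and Slc4a1 thus spanned part of the distance between Ery 1 and Ery 3 inside Ery 2. Rhd (484 and 401 CPM, then 686 and 589 CPM) and Tfrc (131 and 126 CPM, then 214 and 176 CPM) had shallower slopes. Klf1 was nearly flat, at 679 and 629 CPM in the lowest and 766 and 610 CPM in the highest group. Myb was at 25.5 and 35.2 CPM in the lowest and at 8.63 and 17.5 CPM in the highest group, with 8.21 and 11.4 CPM in the third. The summed ribosome biogenesis genes stood at 13042 and 13258 CPM in the lowest and 9232 and 9182 CPM in the highest group.

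**Figure D5:**
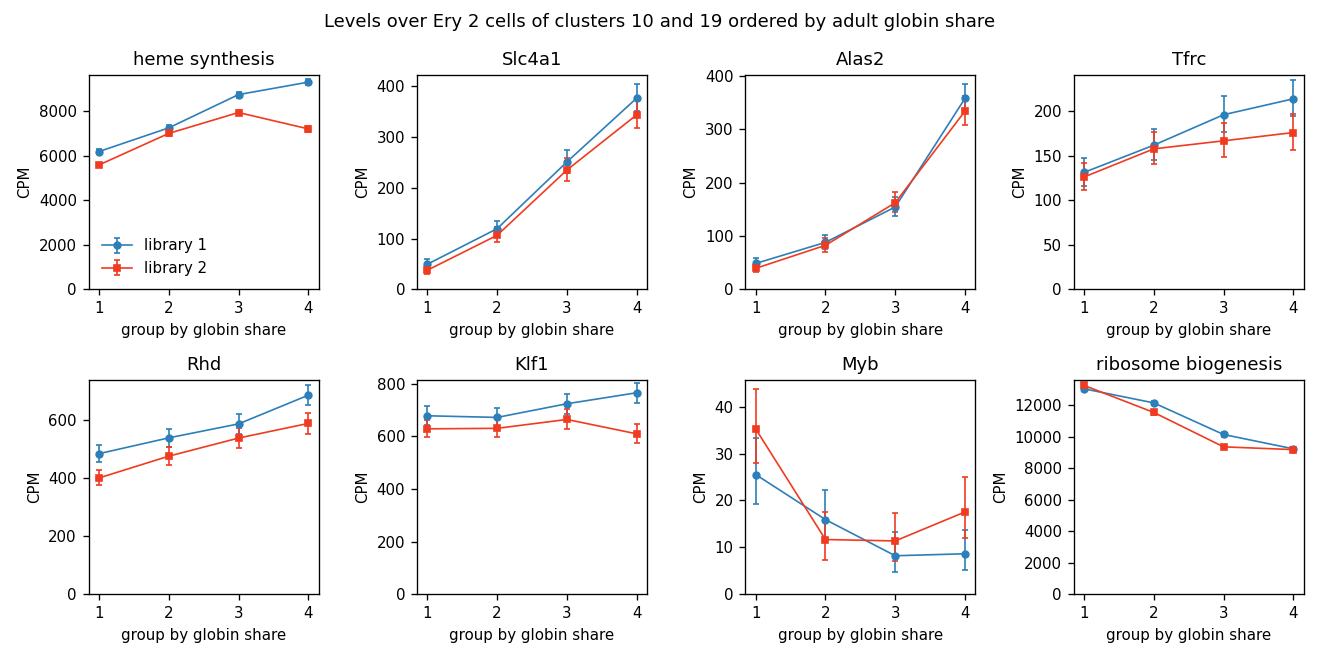
CPM of the summed heme synthesis genes, Slc4a1, Alas2, Tfrc, Rhd, Klf1, Myb and the summed ribosome biogenesis genes over 4 groups of the cells of clusters 10 and 19, ordered by adult globin share, with circles for library 1, squares for library 2 and bars for 95% Poisson intervals. Slc4a1 climbs from 49.6 and 37.9 CPM to 376 and 344 CPM while Klf1 stays between 610 and 766 CPM at both ends.

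Among cells thinned to equal depth, the genes that varied most between Ery 2 cells were globins. The variance of the thinned counts over their mean was 117 and 204 for Hbb-bs, 60.7 and 95.8 for Hbb-bt and 42.5 and 24.8 for the embryonic beta-like gene Hbb-bh1, against a median of 1.03 and 1.04 over 4328 genes. At this depth Car1 followed (9.19 and 10.2), from means of 0.346 and 0.269 UMIs a cell, but it was not among the first 20 genes at 10600 UMIs. Other genes among the first 10 at both depths were the mitochondrial genes mt-Atp6 and mt-Co3, the actin gene Actb (5.32 and 13.2) and the chaperone gene Hspa8 (5.2 and 5.83).

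The deposited cell cycle calls put 74.1% and 81.7% of Ery 2 cells in S phase, against 60.5% and 61.6% in Ery 1 and 72.6% and 78.7% in Ery 3. Calls of G2/M made up 18.3% and 5.01% in Ery 2, 19.2% and 22.8% in Ery 1 and 19.3% and 3.57% in Ery 3. Within Ery 2, 39.1% and 15.8% of cluster 14 cells were called G2/M, against 5.94% and 1.79% in cluster 10 and 2.96% and 2.84% in cluster 19. Depth and free RNA enter such calls and were not separated from them, so the calls are given as deposited.

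Summed markers of other cell types are given here, and those of HSPC, megakaryocytes and granulocytes were below their level in free RNA. Free RNA levels of the other lists are not given. Of 6 HSPC markers, the sum was 1.96 and 2.87 CPM, with Cd34 highest (1.31 and 1.15 CPM) and Mecom at 0, beside 60.8 and 51.5 CPM in free RNA, and no cell had 5 or more UMIs of them. The 6 megakaryocyte markers summed to 36.8 and 37.9 CPM, with Pf4 highest at 12.4 and 14.5 CPM, beside 382 and 269 CPM in free RNA, and 2 and 3 cells had 5 or more UMIs of them. The 10 granulocyte markers summed to 85.4 and 98.6 CPM, with S100a9 highest at 27.4 and 28.8 CPM, beside 2736 and 1995 CPM in free RNA. At least 5 UMIs of granulocyte markers were seen in 20 of the 557 and 15 of the 459 Ery 2 cells, more than for the other non-erythroid lists. The 9 monocyte and Kupffer cell markers summed to 4.25 and 1.84 CPM with Adgre1, Timd4 and Vsig4 at 0, and the 4 mast cell markers to 0.327 and 0.919 CPM with Mcpt8 and Cma1 at 0. Endothelial markers (6 genes) summed to 1.2 and 2.87 CPM and hepatoblast markers (5 genes) to 28.5 and 28.5 CPM, led by Afp at 9.36 and 7.70 CPM, with 3 and 8 cells at 5 or more hepatoblast UMIs. Monocyte and Kupffer cell markers reached 5 UMIs in 2 and 0 cells, endothelial markers in 0 and 1, and mast cell markers in none.

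The libraries differed within Ery 2 at a limited number of genes. Of 4453 genes with 20 CPM or more in either library, 45 (1.01%) were at least 2-fold higher and 24 (0.539%) at least 2-fold lower in library 1. In Ery 1 these shares were 1.02% and 0.539%, and in Ery 3 they were 1.38% and 0.452%. Of the 69 genes, 63 had the same call in Ery 1 (91.3%) and 62 in Ery 3 (89.9%). The 5 highest ratios were those of Gstp1 (266 and 5.97 CPM), Hist1h2ap (883 and 23.3 CPM), Pgk1 (132 and 3.79 CPM), Gm10076 (1097 and 40.6 CPM) and Hmga1 (115 and 4.94 CPM). The 5 lowest were those of Gm6133 (6.53 and 43.1 CPM), Gm10036 (23.1 and 141 CPM), Slc7a5 (4.90 and 23.8 CPM), Gm9008 (8.06 and 33.4 CPM) and Rpl13-ps3 (25.0 and 87.9 CPM). Several of these have near-identical copies or pseudogenes that may share reads, so their levels are uncertain, and read sharing was not tested.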

How the data were processed

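According to the methods, the authors aligned reads of 2 libraries from 1 liver with Cell Ranger 2.1.1 (mm10, GRCm38 annotation), removed cells with under 200 genes and clustered both libraries together in Seurat 3.2.0. The header of the library 1 matrix names 3.0.0. The deposited values are raw UMI counts per gene and barcode. The deposited cell table holds names, clusters, phases and the authors' cell cycle scores, whose scale is not given in the sources used here.

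UMI counts were summed per subcluster and library and scaled to CPM (pandas 2.3.3 and numpy 2.4.6 in Python 3.11.15, with scipy 1.17.1 and matplotlib 3.10.9). Kept cells held 51969226 and 62738015 UMIs. Intervals were exact Poisson or Clopper-Pearson (95%), and a count of 0 allows 3 counts. Symbols carried by more than 1 identifier were left out. Thinning used 1 draw (seed 1) for each group of cells, made separately, with the mean over all draws given beside it for Kit. Doublets were sorted out before encapsulation and no caller was run. The ratios and calls were tested on simulated counts with changes larger than the 2-fold cut-off, so their behaviour near the cut-offs was not tested. The thinning was checked on deposited cells, for the number of UMIs left in each. Members and gene lists were chosen with earlier results of these data known. Genes named are list members, the 10 largest and 10 smallest called ratios of each step, all genes highest or lowest in Ery 2, the 10 most variable, and the 5 highest and 5 lowest library ratios, with values for some. Genes of cluster 14 were chosen after their values were seen. Alternatives were single libraries, deeper or stricter cells, other denominators, filters, folds and thinning, equal cell weights, free RNA subtraction and other orders. Ahsp, Flvcr1 and Cct6a were not analysed here.
Results for some further genes of these lists are not reported here.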

Additional observations from a re-analysis of the deposited data

How the results depend on the processing

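No paired analysis was possible because the 2 libraries are technical replicates of 1 liver and no test was made. No p-value stands behind any value, so the alternatives show how far values move. Of the values recomputed, 1135 moved by no more than the standard deviation between the 2 libraries or, for counts of genes, 1.5 times. Another 381 moved further and 2 reversed. A reversal was counted only for ratios past a set cut-off in both libraries. That limit comes from the libraries themselves, so leaving out 1 library could hardly exceed it. Without library 1, 155 values stayed within it and 5 moved, and without library 2, 154 and 6, which says little about stability. The cause of a move was not tested unless the setting itself fixes it. Each library alone gave 94 to 198 genes higher in Ery 3 than in Ery 2, 10 to 12 highest and 3 to 10 lowest in Ery 2. Without adult globins in the denominator, Ery 3 over Ery 2 was 1.34 for Klf1, 2.42 for Rhd and 2.88 for Tfrc, Rhd in Ery 2 over Ery 1 was 2.88, 231 genes were higher and 366 lower in Ery 3, and 2 were lowest in Ery 2. With each cell weighted equally, Rhd was at 428 CPM and Tfrc at 131 CPM, Ery 2 over Ery 1 was 2.56 and 1.53, Ery 3 over Ery 2 was 2.51 and 3.02, and 3 genes were lowest in Ery 2. With free RNA subtracted as 10%, more than the adult globin of Ery 1 allows, Ery 2 over Ery 1 was 3.80 for Rhd and 1.97 for Tfrc. Without cluster 14 (added after the data had been seen) these were 2.92 and 1.81, 2 genes were lowest in Ery 2, and thinned shares were 91.1% for Rhd and 57.0% for Tfrc. At 50 CPM the 6 counts (higher and lower in Ery 2 than in Ery 1, higher and lower in Ery 3 than in Ery 2, highest and lowest in Ery 2) were 63, 86, 60, 363, 3 and 0. With no filter they were 267, 1270, 248, 1763, 33 and 20. At 3-fold (2-fold for genes highest in Ery 2) the first 5 were 37, 90, 23, 191 and 2. A strict cell filter gave Ery 2 12.0% of kept cells. Shares of cells with Klf1, Rhd and Tfrc were 91.6%, 81.9% and 67.8% without thinning, 99.8%, 97.4% and 76.0% at 10600 UMIs, and 82.6%, 64.6% and 19% for at least 2 UMIs. Over 4 groups of all Ery 2 cells, the pooled ratio of the highest to the lowest group depended on the order. It turned from 3.89 by globin share to 0.714 by Rhd and Tfrc share for embryonic globins. For endoplasmic reticulum chaperones it turned from 0.754 to 1.02. Each turn was seen in 1 library only. Embryonic globins went from 2.64 to 1.47 in library 1 and from 5.82 to 0.674 in library 2. Endoplasmic reticulum chaperones went from 0.759 to 1.48 in library 1 and from 0.747 to 0.917 in library 2. For membrane and ribosome biogenesis genes the pooled ratio was 1.75 and 0.661 by globin share and 2.01 and 0.708 by Rhd and Tfrc share. By globin share it was 1.59 and 0.70 without cluster 14, and 0.663 for ribosome biogenesis with thinning before ordering. Of the 8 genes higher in cluster 14, 3 were higher among its low mitochondrial cells. Genes under 20 CPM in the pooled libraries were not called.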
